A study of Mus musculus with 12 samples.

Results

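Wounded mouse skin was treated with trimebutine maleate, with alprostadil or with vehicle, and the mean of the 2 drug groups was set against the vehicle group. The comparison took 9 of the 12 arrays of the series, chosen by their labelled treatment group: 3 of the wound trimebutine group, 3 of the wound alprostadil group and 3 of the wound vehicle group. The other 3 arrays, from uninjured skin treated with vehicle, entered the estimate of the spread and are given as a reference level. All 12 samples were skin-derived precursors (SKPs), dermal stem-like cells that grow as floating spheres. They came from independent isolates of 9-month-old mice of the strain labelled CD57/Bl6. Every group, vehicle included, was grown at 50000 cells per ml. The medium held EGF (20 ng/ml), FGF2 (40 ng/ml), B27 (2%) and fungizone (1 ug/ml), and RNA came from secondary spheres. The levels are therefore those of cells grown in culture after they left the treated skin. The sources used here do not give doses, the time of treatment or the site of the wound. RNA was read on Affymetrix Mouse Gene 2.0 ST arrays, and levels are log2 values after robust multi-array averaging (RMA), so that a difference of 1 is a factor of 2 in signal.

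Dermal fibroblasts and their precursors repair a wound by dividing, laying down collagen and elastic fibres and pulling the wound edges together, under control of TGF-beta, Wnt and platelet-derived growth factor signals. Trimebutine is a gut motility drug that binds opioid receptors and blocks calcium and potassium channels. Alprostadil is prostaglandin E1, which acts on the EP receptors and, through some of them, raises cyclic AMP. The pooled comparison asks what the wound cells of both drug groups had in common against vehicle, and the comparison of one drug with the other asks where they differed.

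The sequences shown first belong to genes that the results turn on, and all are RefSeq's on mouse build GRCm38.p6. Among the named genes with the largest shared difference below vehicle were a pair of microRNA genes, Mir3473d and Mir1190. The array measures the microRNA gene and does not tell a precursor from the mature strand, so the mature sequences are shown for identity, with the seed (bases 2 to 8) in capitals. Their seeds differ, so they do not share a seed family.
mmu-miR-3473d (chr8:111016498-111016521, minus strand): cCACUGAGccacuuuccagcccuu
mmu-miR-1190 (chr12:101021692-101021713, minus strand): uCAGCUGAgguuccccucuguc

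In the pooled comparison the mitosis genes and the endoplasmic reticulum (ER) chaperone genes stood in opposite directions. Every tested member of the first list lay above vehicle and every tested member of the other below, although none passed the test. The ER median was -0.51 for trimebutine and -0.04 for alprostadil, and several ER genes lay above vehicle with alprostadil. Promoters of both lists are shown because their known control motifs differ. Each line gives the 250 bases before the start site. For the mitosis genes Ube2c, which loads ubiquitin onto mitotic cyclins, and Mki67, the proliferation antigen Ki-67, capitals mark the cell cycle homology region, TTTGAA, and the CCAAT box, each on either strand.
Ube2c (chr2:164769679-164769928, plus strand): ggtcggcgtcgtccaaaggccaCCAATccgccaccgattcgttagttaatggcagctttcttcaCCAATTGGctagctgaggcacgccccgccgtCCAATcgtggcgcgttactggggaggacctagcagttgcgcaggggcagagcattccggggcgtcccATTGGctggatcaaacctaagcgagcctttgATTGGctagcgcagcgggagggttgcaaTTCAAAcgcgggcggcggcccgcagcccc
Mki67 (chr7:135716380-135716629, minus strand): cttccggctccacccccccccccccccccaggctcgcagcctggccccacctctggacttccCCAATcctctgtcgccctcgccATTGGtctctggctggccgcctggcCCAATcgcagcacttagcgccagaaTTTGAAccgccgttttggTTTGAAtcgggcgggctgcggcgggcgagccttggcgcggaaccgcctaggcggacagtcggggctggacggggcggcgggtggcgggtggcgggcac
For the ER chaperone genes Hspa5 (BiP), Pdia6, a disulfide isomerase, and Hsp90b1 (GRP94), capitals mark the ER stress response element, CCAAT and CCACG separated by 9 bases, on either strand. This element contains a CCAAT box, so the motifs overlap.
Hspa5 (chr2:34771840-34772089, plus strand): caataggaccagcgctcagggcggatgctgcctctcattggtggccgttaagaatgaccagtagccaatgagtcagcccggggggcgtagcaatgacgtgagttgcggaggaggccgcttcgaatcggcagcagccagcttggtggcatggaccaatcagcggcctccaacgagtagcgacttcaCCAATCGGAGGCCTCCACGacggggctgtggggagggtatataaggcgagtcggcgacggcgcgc
Pdia6 (chr12:17266339-17266588, plus strand): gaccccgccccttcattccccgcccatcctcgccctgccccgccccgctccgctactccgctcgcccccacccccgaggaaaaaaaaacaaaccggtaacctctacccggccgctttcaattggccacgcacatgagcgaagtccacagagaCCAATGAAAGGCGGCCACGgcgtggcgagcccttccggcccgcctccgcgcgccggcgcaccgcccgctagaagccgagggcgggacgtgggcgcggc
Hsp90b1 (chr10:86705445-86705694, minus strand): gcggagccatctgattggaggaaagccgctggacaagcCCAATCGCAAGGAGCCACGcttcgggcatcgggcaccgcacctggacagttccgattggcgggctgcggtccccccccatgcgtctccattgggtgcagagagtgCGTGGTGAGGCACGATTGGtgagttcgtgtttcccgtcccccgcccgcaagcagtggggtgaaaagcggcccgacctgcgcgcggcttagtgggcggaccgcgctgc
For Car9, the hypoxia-induced carbonic anhydrase IX and the leading enzyme among the genes below vehicle, capitals mark the hypoxia response core, ACGTG, on either strand.
Car9 (chr4:43506776-43507025, plus strand): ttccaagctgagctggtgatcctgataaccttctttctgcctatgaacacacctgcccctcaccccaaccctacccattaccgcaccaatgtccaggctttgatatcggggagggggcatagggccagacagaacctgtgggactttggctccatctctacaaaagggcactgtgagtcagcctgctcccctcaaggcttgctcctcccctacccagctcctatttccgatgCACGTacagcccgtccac

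Motif shares were counted in windows of 250 bases before to 50 bases after the start, 1 per gene, over 27025 genes. TTTGAA lay in 22 of the 28 tested mitosis genes with a promoter entry (78.6%), in 1 of 21 ER genes (4.76%) and in 18.1% of all genes. A CCAAT box lay in 21 of 28 mitosis genes (75%), 19 of 21 ER genes (90.5%) and 37.9% of all genes. The whole ER stress response element lay in 10 of 21 ER genes (47.6%), in 0 of 28 mitosis genes and in 0.13% of all genes. ACGTG lay in 13 of 21 hypoxia and glycolysis genes (61.9%) and in 19.7% of all genes. Ube2c held TTTGAA at bases 29 to 24 before its start, and Mki67 held it at bases 116 to 111 and 98 to 93. The stress element of Hspa5 ran from base 65 to base 47 before the start and that of Pdia6 from base 98 to base 80. Hsp90b1 held a pair of such elements, at bases 212 to 194 and 107 to 89. A match describes these windows and is not a shown binding site.

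The labels were checked against marker genes first. Sox2, a precursor marker, lay below the array median on all 12 arrays (4.69 to 5.61), and nestin (Nes) lay between 6.60 and 7.12, close to the array medians of 6.57 to 6.74. Fibroblast genes were bright, with fibronectin (Fn1) at 13.81 to 13.94, Pdgfra at 11.19 to 12.67 and Col1a1 at 11.95 to 13.25. Within the groups, single arrays stood apart. On the first principal component, which carried 43.8% of the variance, wound vehicle replicates 1 and 2 lay at 34.1 and 38.9, and replicate 3 lay at -13.9, among the trimebutine arrays at -10.8, -17.6 and -19.3. Alprostadil replicates 1, 2 and 3 lay at 19.3, 29.6 and -15.4. The 3 arrays of lowest median, at 6.57 to 6.62, were replicate 1 of the uninjured, trimebutine and alprostadil groups, so no vehicle wound array was among them. Macrophage markers marked out alprostadil replicate 1. There the summed linear signal of 26 markers was 53070, against 2325 to 6282 on the other 11 arrays, and 25 of the 26 lay above the array median. The part of these arrays in the differences given here was not tested, and several counts and medians without one of them are given beside the result. Arrays hybridised per group numbered 3, which limits the precision of every difference. Nothing in the labels says how the isolates were paired across treatments.

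No gene passed an adjusted p of 0.05 in the pooled comparison, 0 of 13153 tested (0%; limma with Benjamini-Hochberg adjustment, smallest adjusted p 0.783). The genes whose unadjusted p was under 0.05 numbered 438 higher with the drugs (3.33%) and 258 lower (1.96%). That split depended on the scaling. It was 171 higher and 713 lower when each array was centred on its median over the tested genes, and 697 higher and 69 lower when each was centred on its median over all probe sets, a scaling chosen after the data were seen. These medians went opposite ways: the tested genes had a mean array median of 8.83 with the drugs and 8.76 with vehicle, and all probe sets one of 6.68 and 6.74. A further quantile normalization gave 266 higher and 402 lower. Over all tested genes the median difference was 0.01, 53.9% lay above 0 and the median standard error was 0.12. With wound vehicle replicate 3 left out the smallest adjusted p was 0.0538 and still 0 genes passed, with 1292 higher and 747 lower at an unadjusted p under 0.05.

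A further description asked for genes whose 6 drug arrays all lay on one side of all 3 vehicle arrays. There were 132 such genes above vehicle (1%) and 119 below (0.905%). A random order of these arrays would also separate some genes in this way. The counts were not tested against that share, so they and the separated genes named below are given as a description alone. These separations were small, with a median of 0.22 above and -0.215 below, and none reached 1 log2 unit, the extremes being 0.83 for Esr1 and -0.48 for Mir3473d. Of them, 85 above and 87 below also had an unadjusted p under 0.05. Centring on the tested-gene medians left 31 above and gave 385 below (0.236% and 2.93%), and centring on the medians of all probe sets gave 269 above and 37 below (2.05% and 0.281%). A further quantile normalization gave 60 and 194 (0.456% and 1.47%). Of the 31 named genes without overlap, 25, 27 and 24 kept the separation under these 3 scalings. The 4 that overlapped after centring on all probe sets were Hmgb3, Prrxl1, Snap91 and Tmem132b, and quantile normalization ended the separation of Snap91 and Smim27 among others. Without wound vehicle replicate 3 the counts were 1197 above and 910 below (9.1% and 6.92%). Leaving out an array can only loosen the criterion, so the counts could not fall and all 251 were kept by construction. By contrast, 84 genes differed by more than 1 log2 unit upward and 9 downward, and in all of these at least 1 drug array overlapped the vehicle arrays.

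**Figure D1:**
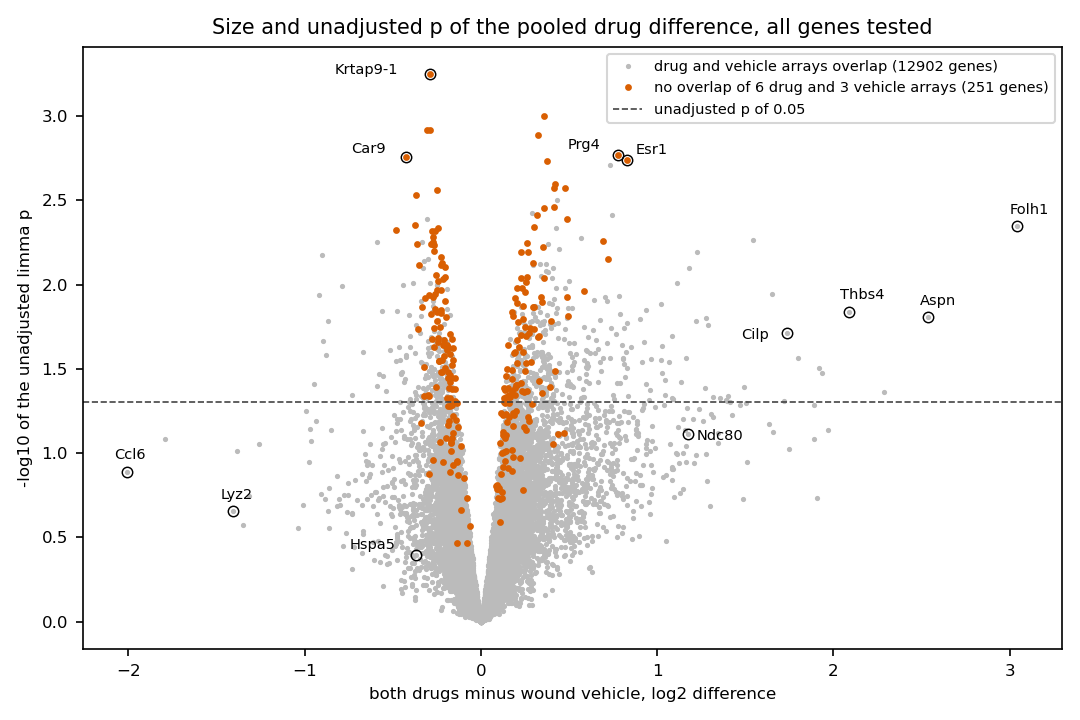
Each point is 1 of 13153 tested genes, with the log2 difference between the mean of both drug groups and wound vehicle on the horizontal axis and -log10 of the unadjusted limma p on the vertical axis; orange points are the 251 genes without overlap of drug and vehicle arrays. The orange points lie between -0.48 and 0.83, while the genes of largest difference, such as Folh1 at 3.04, are grey because their arrays overlapped.

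Among the genes above vehicle, Esr1, which encodes oestrogen receptor alpha, had the largest separated difference. Its levels were 7.46, 7.42 and 7.75 on the vehicle arrays, 9.07, 8.42 and 8.32 with trimebutine and 8.55, 8.10 and 7.77 with alprostadil (replicates 1, 2 and 3, in that order here and below). All 6 drug arrays lay above the vehicle arrays, alprostadil replicate 3 by the narrowest margin, and uninjured cells stood at 8.79, 8.96 and 9.13. The pooled difference was 0.83 ± 0.20 (SE; 95% interval 0.39 to 1.27, limma adjusted p = 0.783, as for the other named genes of smallest p). The separation of Esr1 and of Prg4 was lost when arrays were centred on their tested-gene medians.

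Prg4 encodes lubricin, the boundary lubricant of joints, which fibroblasts of other tissues also secrete. It lay at 10.09, 10.28 and 10.61 with vehicle, 10.96, 11.50 and 11.29 with trimebutine and 10.75, 11.23 and 10.89 with alprostadil, so that the drug groups lay entirely above vehicle. Uninjured cells, at 10.17, 10.86 and 10.61, were in the range of vehicle or a little above it. The difference was 0.78 ± 0.18 (95% interval 0.37 to 1.19).

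The separated genes whose smaller single-drug difference was largest were Arhgef6, Prg4, Csmd3 and Esr1. Arhgef6, an exchange factor that activates Rac and Cdc42, lay at 6.99, 7.45 and 7.12 with vehicle, 7.48, 8.23 and 7.82 with trimebutine and 8.47, 7.70 and 7.75 with alprostadil. Its uninjured levels of 8.50, 8.28 and 8.01 were at the upper end of the drug arrays. Csmd3, which encodes a large membrane protein with CUB and sushi domains, lay at 6.16, 6.03 and 6.31, then 6.41, 6.96 and 6.98 and 6.62, 6.78 and 7.40 in the same order of groups. Both drug groups stood between vehicle and the uninjured arrays (7.37, 7.48 and 7.90) in their means. All 3 vehicle arrays of Csmd3, and its trimebutine replicate 1, lay below their array medians. The pooled differences of Arhgef6 and Csmd3 were 0.72 ± 0.21 and 0.69 ± 0.20.

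A growth factor, a receptor kinase and cytoskeletal regulators were also among them. Artn encodes artemin, a GDNF-family ligand that supports sensory nerve fibres. It lay at 6.59, 6.56 and 6.79 with vehicle, 7.34, 6.90 and 7.42 with trimebutine and 7.38, 6.86 and 6.93 with alprostadil, above vehicle on all 6 drug arrays, and at 6.36, 6.79 and 6.34 in uninjured cells, which overlapped vehicle. Vehicle replicates 1 and 2 lay below their array medians of 6.73 and 6.74. Artn was bright enough to be tested only through its drug arrays, so its separation is not independent of that filter. Musk, the kinase that organises the nerve-muscle synapse, was higher by 0.58 ± 0.19, with trimebutine replicate 3 at 7.56 just above the highest vehicle array at 7.54. Cdc42ep1, a Cdc42 effector, was higher by 0.49 ± 0.17, and Stk38l, a kinase of the Hippo-related NDR family, by 0.42 ± 0.11. Zbtb8a, a zinc finger protein, was higher by 0.49 ± 0.13 and Gstt3, a glutathione transferase, by 0.40 ± 0.14. Musk and Arhgef6 overlapped between groups after centring on the tested genes and after quantile normalization.

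Several leaders by p had smaller differences with tight replicates. Smim27, a small membrane protein gene, lay at 7.67, 7.58 and 7.84 with vehicle and at 8.16, 8.24 and 7.99 and 8.02, 7.98 and 7.93 with the drugs, a difference of 0.36 ± 0.08. Htatsf1, a splicing and elongation cofactor, was higher by 0.32 ± 0.07, with nearly equal single-drug differences of 0.31 for trimebutine and 0.34 for alprostadil. Kat2b, a histone acetyltransferase, was higher by 0.37 ± 0.09, but its lowest drug array and highest vehicle array both read 8.38. Fam217b (0.41 ± 0.11) and Rsl1 (0.36 ± 0.10), a zinc finger repressor of sex-specific liver genes, were the other separated genes of smallest p. Itgbl1, an integrin beta-like secreted protein, and Pcdhb15, a clustered protocadherin, differed by 0.74 ± 0.18 and 0.43 ± 0.11. One alprostadil array of Itgbl1 and all 3 of Pcdhb15 lay within the vehicle range.

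**Figure D2:**
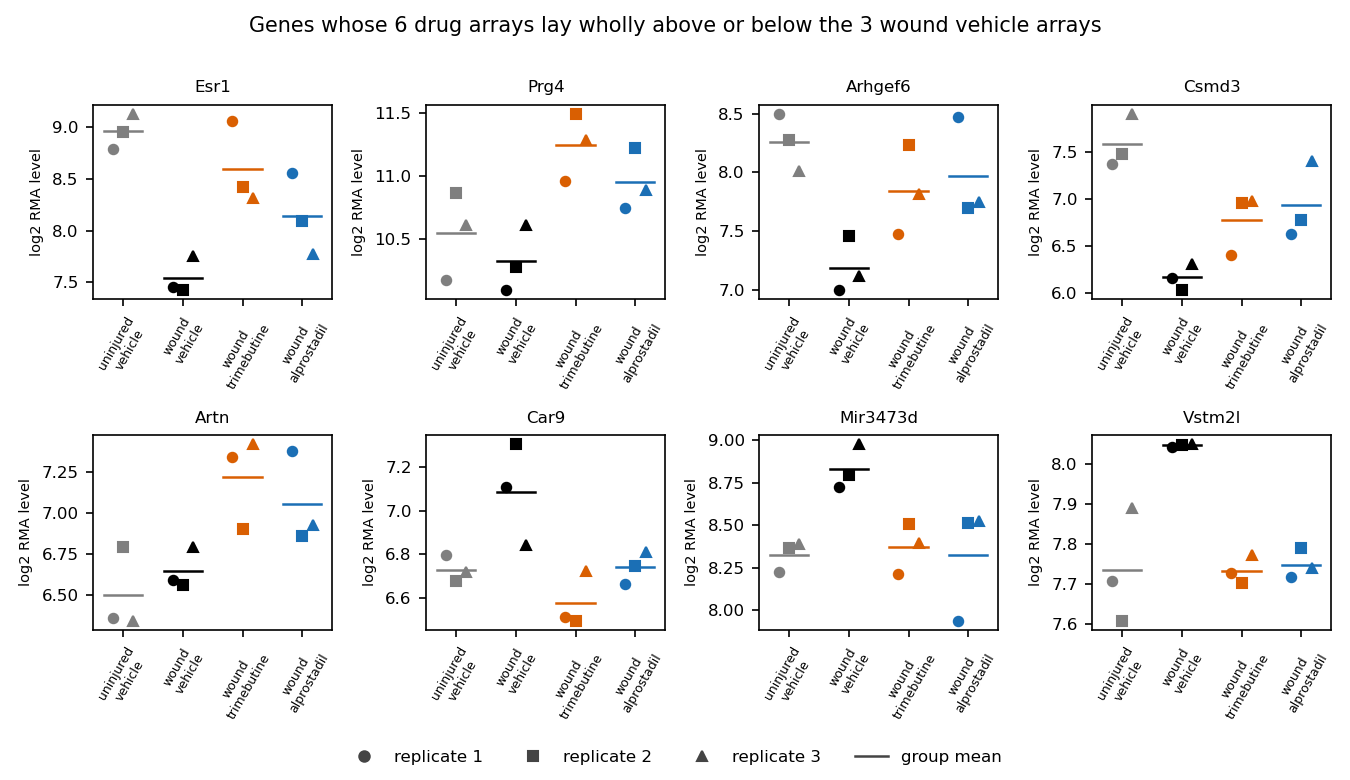
Log2 RMA levels of 8 genes on all 12 arrays by group; marker shapes give the replicate number and horizontal lines the group means. In each panel the 6 drug arrays lie on one side of the 3 wound vehicle arrays, as for Esr1 (at least 7.77 with the drugs, at most 7.75 with vehicle).

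Below vehicle, Car9 was the enzyme gene of largest separated difference. Its levels were 7.11, 7.31 and 6.84 with vehicle, 6.51, 6.49 and 6.72 with trimebutine and 6.67, 6.75 and 6.81 with alprostadil. The highest drug array, at 6.81, lay just under the lowest vehicle array, and uninjured cells at 6.80, 6.68 and 6.72 lay with the drug groups. The drug levels were close to the array medians of 6.57 to 6.74, and trimebutine replicates 1 and 2 lay below theirs. Car9 had 2 probe sets, of which only the brighter was read here. The difference was -0.43 ± 0.10 (95% interval -0.65 to -0.20), and after quantile normalization the groups overlapped. Vegfa, another hypoxia-induced gene and the main angiogenic growth factor, lay at 12.29, 12.15 and 11.85 with vehicle, 11.62, 11.62 and 11.46 with trimebutine and 11.64, 12.15 and 11.52 with alprostadil. It differed by a like amount (-0.43 ± 0.18), with alprostadil replicate 2 inside the vehicle range. The hypoxia and glycolysis list as a whole did not share that direction: 16 of 22 tested members were higher and 6 lower, with a median of 0.10 that was -0.03 without vehicle replicate 2. Pgam1, a glycolytic mutase, stood at 0.27 ± 0.14.

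Mir3473d lay at 8.72, 8.80 and 8.98 with vehicle, 8.21, 8.51 and 8.40 with trimebutine and 7.94, 8.52 and 8.53 with alprostadil. All 6 drug arrays lay below vehicle, as did the uninjured arrays (8.23, 8.37 and 8.39). The difference was -0.48 ± 0.13, with -0.46 for trimebutine and -0.51 for alprostadil. Mir1190 lay close to the array medians of 6.57 to 6.74, at 7.06, 6.86 and 6.91 with vehicle and between 6.39 and 6.82 with the drugs. It differed by -0.28 ± 0.10, and its single-drug differences were -0.28 and -0.29.

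The gene of smallest p in the whole comparison was Krtap9-1, a hair keratin-associated protein gene. It lay at 8.13, 8.22 and 8.25 with vehicle, 7.92, 7.85 and 7.90 with trimebutine and 7.87, 7.99 and 7.93 with alprostadil (difference -0.29 ± 0.06, limma adjusted p = 0.783). Vstm2l, which encodes a secreted immunoglobulin-domain protein, had vehicle levels of 8.04, 8.05 and 8.05 and drug levels between 7.70 and 7.79. The gap was wide beside that spread, yet the difference was only -0.31 ± 0.07. Hmgb3, a chromatin protein of stem and progenitor cells, lay at 9.33, 9.17 and 9.21 with vehicle, 9.11, 8.93 and 8.76 with trimebutine and 8.84, 8.99 and 8.60 with alprostadil, a difference of -0.36 ± 0.10.

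Several of the other separated genes are better known from neurons and lymphocytes. Snap91, Cplx2, Prrxl1 and Lat lay between 6.33 and 7.50 on the wound arrays, close to the array medians. On trimebutine replicates 2 and 3 Snap91 lay below the array median. Snap91, a clathrin assembly protein of synapses, differed by -0.37 ± 0.10, and Cplx2, complexin 2, by -0.35 ± 0.11. Prrxl1, a homeobox factor of sensory neurons, had a difference of -0.25 ± 0.06, and Lat, an adaptor of the T cell receptor, one of -0.27 ± 0.08. Ifnl2, an interferon lambda gene, stood at -0.32 ± 0.13 and Rpl39l, a ribosomal protein paralog, at -0.34 ± 0.16. Lrrc26, Tmem132b and Krtcap3 had differences of -0.24 ± 0.07, -0.26 ± 0.07 and -0.33 ± 0.11. Get3, which inserts tail-anchored proteins into the ER membrane, was bright (11.51, 11.57 and 11.26 with vehicle) and differed by -0.31 ± 0.08, with 1 alprostadil array inside the vehicle range.

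The largest pooled differences belonged to genes that did not separate the groups. Folh1, a folate hydrolase chosen here after its values were seen, lay at 6.29, 7.16 and 9.19 with vehicle, 12.32, 10.79 and 11.04 with trimebutine and 11.20, 7.51 and 10.67 with alprostadil. Vehicle replicate 3 stood above alprostadil replicate 2, and the pooled difference was 3.04 ± 0.84. Aspn, the matrix proteoglycan asporin and also chosen after its values were seen, showed the same layout at 5.62, 5.65 and 9.26, 9.88, 10.80 and 10.71 and 7.69, 7.12 and 10.07, with a difference of 2.54 ± 0.88. In both genes vehicle replicate 3 was the high vehicle array and alprostadil replicate 2 the low drug array.

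Cell division genes had higher medians with both drugs, 0.71 for trimebutine and 0.56 for alprostadil against the same vehicle arrays, while the arrays of the groups overlapped. All 34 tested members of the mitosis list lay above 0, by 0.30 to 1.28, with a median of 0.65 against 0.01 over all tested genes. None had an unadjusted p under 0.05, none passed the adjusted test and none separated the groups. Ndc80, a kinetochore protein, lay at 5.99, 5.12 and 7.68 with vehicle, 8.15, 7.37 and 7.26 with trimebutine and 8.35, 6.16 and 7.34 with alprostadil. Mki67 lay at 7.28, 7.11 and 9.55, 9.80, 8.97 and 9.19 and 10.64, 7.01 and 9.05 in the same order. In both genes vehicle replicates 1 and 2 were low and replicate 3 was high, and alprostadil replicate 2 was low beside its group. Their pooled differences were 1.18 ± 0.60 (95% interval -0.15 to 2.50) and 1.13 ± 0.77 (95% interval -0.58 to 2.84). Ube2c and Ttk, a spindle checkpoint kinase, stood at 1.11 ± 0.61 and 0.51 ± 0.27. The median of the list was 1.15 without vehicle replicate 3, 0.37 without vehicle replicate 2 and 0.41 without alprostadil replicate 1. The mean level of the list, centred per gene, read -0.89, -1.15 and 0.46 with vehicle. It read 0.65, 0.11 and 0.15 with trimebutine and 1.01, -0.93 and 0.14 with alprostadil. Only replicate 1 of each drug group lay above the highest vehicle array, and alprostadil replicates 2 and 3 lay within the vehicle range.

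DNA replication genes followed at a smaller size, with 28 of 32 tested above 0 and a median of 0.18. Of the 32, only Rfc3, a clamp loader subunit, was higher at an unadjusted p under 0.05, against 3.33% of all tested genes. Its levels were 8.11, 7.69 and 8.18 with vehicle, 8.22, 8.19 and 8.15 with trimebutine and 8.51, 8.25 and 8.30 with alprostadil, with vehicle replicate 2 the low array, and its difference was 0.28 ± 0.12. Rrm2, the ribonucleotide reductase subunit of dividing cells, stood at 0.91 ± 0.56 and Pola1, a DNA polymerase subunit, at 0.35 ± 0.16. Among 19 cell cycle inhibitors and p53 targets, 5 were higher and 14 lower, with a median of -0.08 that was -0.02 without vehicle replicate 1 and -0.16 without vehicle replicate 3. Cdkn2b, the inhibitor p15, lay at 10.02, 9.56 and 9.63 with vehicle, 9.09, 9.55 and 9.29 with trimebutine and 9.49, 9.42 and 9.59 with alprostadil, so that vehicle replicate 1 was the high array (difference -0.33 ± 0.13). Mdm2, which degrades p53, stood at -0.24 ± 0.11 and Sesn1, a p53 target, at 0.42 ± 0.17. The DNA replication median was 0.08 without vehicle replicate 2 and 0.39 without vehicle replicate 3.

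**Figure D3:**
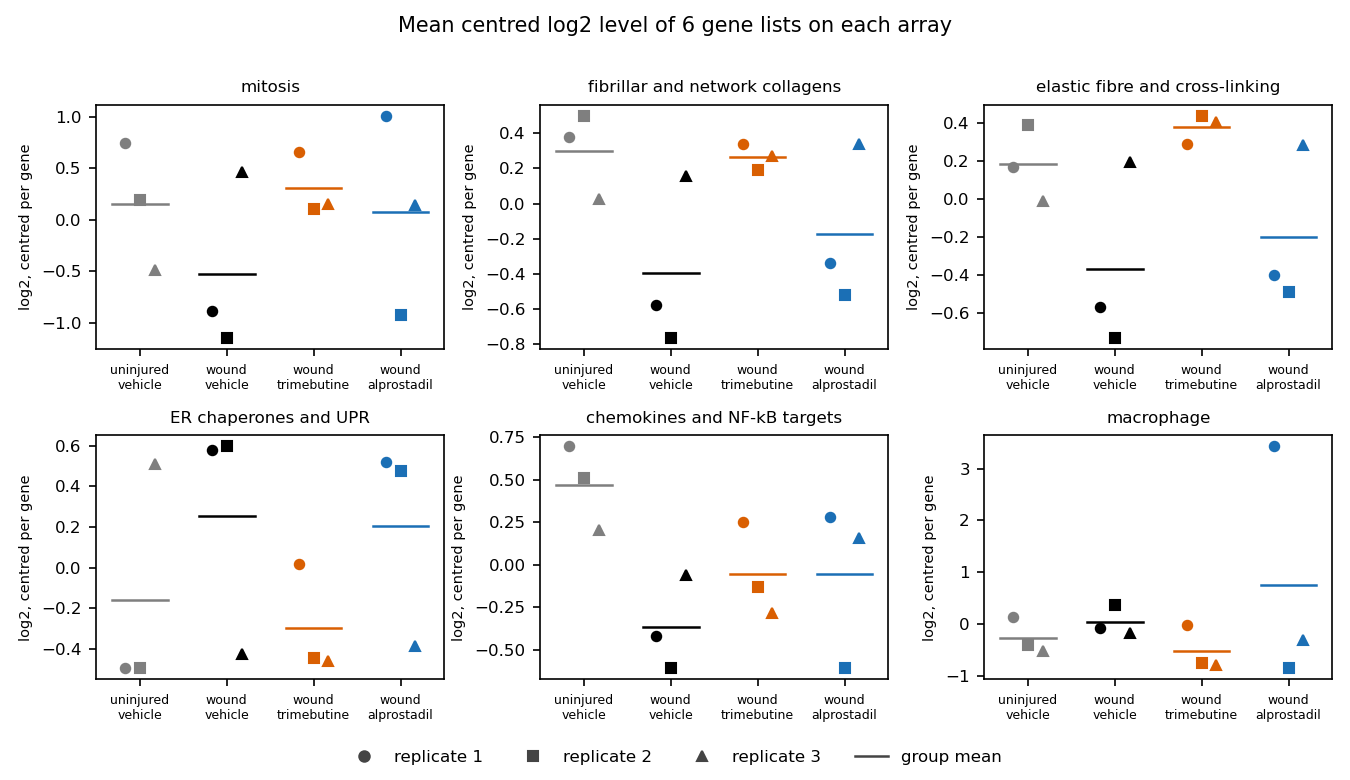
Mean log2 level of 6 gene lists on each of the 12 arrays, each gene centred on its mean over all arrays; marker shapes give the replicate and lines the group means. Wound vehicle replicates 1 and 2 lie low for mitosis (-0.89 and -1.15) and high for ER chaperones (0.58 and 0.60), while replicate 3 (0.46 and -0.42) lies with most drug arrays.

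Every matrix list had a median above 0, larger for trimebutine than for alprostadil. Of 19 tested collagens 16 were higher, with a median of 0.55. The collagen medians were 0.80 for trimebutine and 0.19 for alprostadil, each against the same 3 vehicle arrays. Of the 23 elastic fibre and cross-linking genes 21 were higher (median 0.38), of 22 matricellular and proteoglycan genes 20 (median 0.44), and of 25 matrix proteases and inhibitors 18 (median 0.23). At an unadjusted p under 0.05 these lists held 1, 2, 4 and 1 genes, all higher, against 3.33% of all tested genes, and none passed the adjusted test. Without vehicle replicate 3 the medians of these lists were 0.85, 0.62, 0.71 and 0.43. Without vehicle replicate 2 they were 0.27, 0.22, 0.18 and 0.04.

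Col3a1, the fibrillar collagen of early wounds, lay at 11.53, 10.64 and 12.55 with vehicle, 12.81, 12.82 and 12.84 with trimebutine and 11.96, 11.26 and 12.93 with alprostadil. The 3 trimebutine arrays lay close together above every vehicle array, while alprostadil replicates 1 and 2 lay within the vehicle range. Its difference was 0.86 ± 0.41. Col12a1, which decorates collagen fibrils, stood at 1.39 ± 0.62, Col5a1 at 0.41 ± 0.21 and Col1a1, the main fibrillar chain, at 0.43 ± 0.27. Col14a1, the lowest of the list, stood at -0.86. Lox, the enzyme that cross-links collagen and elastin, lay at 11.004, 10.58 and 12.51, 13.09, 12.67 and 12.61 and 12.51, 11.20 and 12.51, a difference of 1.07 ± 0.42. Fbln2, an elastic fibre protein, stood at 0.40 ± 0.16, and Ltbp2, a fibrillin-binding protein, at 0.93 ± 0.42.

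Thbs4, a thrombospondin of tendon and muscle, had the largest difference of any list member. It lay at 8.37, 8.02 and 10.39 with vehicle, 12.47, 11.90 and 12.82 with trimebutine and 10.24, 7.81 and 10.85 with alprostadil. Trimebutine stood above all other wound arrays, and alprostadil replicate 2 lay below every vehicle array. The pooled difference of 2.09 ± 0.71 combined 3.47 for trimebutine with 0.70 for alprostadil. Cilp, a cartilage matrix protein, stood at 1.74 ± 0.63 and Thbs1, which activates latent TGF-beta, at 0.79 ± 0.27. Among the proteases, Adamts1 stood at 0.49 ± 0.21 and Adam12 at 1.15 ± 0.63. Cartilage, bone and tendon markers, of which Thbs4 is one, were higher in 8 of 10 tested, with a median of 0.20. The tendon factor Mkx stood at 0.99 ± 0.45 and the cartilage collagen gene Col11a2 at -0.18 ± 0.09.

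Contractile genes were higher in 16 of 21 tested (median 0.17), with a median of 0.33 for trimebutine and 0.0004 for alprostadil. Acta2, the smooth muscle actin of myofibroblasts, lay at 7.93, 7.84 and 9.95 with vehicle, 10.16, 9.81 and 10.14 with trimebutine and 8.53, 8.40 and 9.67 with alprostadil. Vehicle replicate 3 exceeded all alprostadil arrays and 1 trimebutine array, and the difference was 0.88 ± 0.44. Flna, an actin cross-linker, stood at 0.17 ± 0.09, and Itga11, a collagen receptor of fibroblasts, at 0.93 ± 0.50. Papillary and reticular fibroblast markers were higher in 16 of 20 (median 0.37), with Dpt, dermatopontin, at 1.09 ± 0.40. The contractile median ran from 0.04 without vehicle replicate 2 to 0.33 without vehicle replicate 3, and the papillary and reticular median from 0.14 to 0.62 likewise.

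The TGF-beta, BMP and Wnt lists were higher in the majority of their members. In the TGF-beta list 19 of 23 tested were higher (median 0.20), or 15 when arrays were centred on the tested genes. Of the 23, 4 had an unadjusted p under 0.05, all higher, against 3.33% of all tested genes. Itgb8, the integrin subunit that releases active TGF-beta, lay at 7.36, 7.23 and 8.17 with vehicle, 8.17, 8.38 and 8.18 with trimebutine and 8.39, 7.69 and 8.24 with alprostadil, a difference of 0.59 ± 0.21. Of the 6 drug arrays 5 lay at or above the highest vehicle array, and uninjured cells were higher still at 9.38, 9.32 and 9.44. The receptor Tgfbr2 stood at 0.57 ± 0.25 and the induced matrix protein Tgfbi at 0.44 ± 0.18. The connective tissue growth factor gene Ccn2, a TGF-beta and YAP target, stood at 0.55 ± 0.38, with 1.16 for trimebutine and -0.06 for alprostadil.

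In the BMP list 18 of 22 were higher (median 0.17) and none had an unadjusted p under 0.05. Fst, the activin and BMP antagonist follistatin, lay at 7.59, 7.49 and 9.12, 9.65, 9.69 and 9.71 and 8.71, 7.63 and 10.02, a difference of 1.17 ± 0.54. The ligand Bmp5 stood at 0.73 ± 0.35 and the transducer Smad5 at 0.21 ± 0.10. In the Wnt list 24 of 29 were higher (median 0.24), with 4 higher and 1 lower at an unadjusted p under 0.05, against 3.33% and 1.96% of all tested genes. Fzd4, a Wnt receptor, lay at 7.91, 7.99 and 7.68 with vehicle, 8.46, 8.56 and 8.58 with trimebutine and 8.58, 7.89 and 8.49 with alprostadil, and only alprostadil replicate 2 lay in the vehicle range (difference 0.57 ± 0.16). Lrp6, the Wnt co-receptor, was the 1 member of 29 without overlap, against 1% of all tested genes above vehicle. It lay at 11.04, 11.17 and 11.20, 11.37, 11.45 and 11.56 and 11.23, 11.20 and 11.36. Vehicle replicate 3 and alprostadil replicate 2 differed by less than the second decimal. Its difference was 0.23 ± 0.07, and the groups overlapped after centring on the tested genes and after quantile normalization. Fzd8 stood at 0.30 ± 0.12, and Lef1, a nuclear effector of Wnt signals and a dermal papilla gene, at -0.41 ± 0.18 with -0.78 for trimebutine and -0.04 for alprostadil. The Wnt median was 0.44 without vehicle replicate 3 and 0.17 without vehicle replicate 2.

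Growth factor genes went both ways. Among 25 tested ligands 16 were higher and 9 lower (median 0.15, or 0.06 without vehicle replicate 2 and 0.28 without vehicle replicate 1), and among 23 receptors 15 were higher (median 0.26). Fgf18, a mitogen of mesenchymal cells, was the 1 ligand of 25 without overlap, against 1% of all tested genes above vehicle. It was picked for that after its values were seen. Its levels were 8.09, 7.96 and 8.03 with vehicle, 8.85, 8.63 and 8.28 with trimebutine and 8.55, 8.18 and 8.52 with alprostadil (difference 0.47 ± 0.24). Pdgfd and Angpt1, an endothelial-stabilising ligand, stood at 0.68 ± 0.27 and 1.04 ± 0.44. The keratinocyte growth factor gene Fgf7 stood at 0.41 ± 0.38 and Hgf at -0.09 ± 0.14. Of the receptors, the Wnt5a receptors Ror1 and Ror2 stood at 1.27 ± 0.54 and 0.56 ± 0.23, Pdgfrb at 0.50 ± 0.22 and Pdgfra at 0.33 ± 0.29. The receptor median was 0.08 without vehicle replicate 1 and 0.51 without vehicle replicate 3. Precursor and dermal papilla genes were higher in 17 of 26 (median 0.10), with Vcan at 0.54 ± 0.21, Rspo3 at 0.77 ± 0.38 and Nes at -0.07 ± 0.11. Hox genes were evenly divided (11 of 20 higher, median 0.04), and Hoxc8 was the highest at 0.51 ± 0.19, with Hoxb9 at -0.54 ± 0.29 and Hoxa13 at -0.18 ± 0.10.

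ER chaperone and unfolded protein response genes stood below vehicle. All 25 tested were lower, from -1.04 (Derl3) to -0.0002 (Eif2ak3), with a median of -0.27 (1 of the 25 was higher when arrays were centred on all probe sets), and none had an unadjusted p under 0.05. The median was -0.51 for trimebutine and -0.04 for alprostadil. Hspa5 lay at 12.74, 12.63 and 11.34 with vehicle, 11.94, 11.38 and 11.27 with trimebutine and 12.45, 12.58 and 11.60 with alprostadil. Alprostadil replicates 1 and 2 lay with vehicle replicates 1 and 2, and vehicle replicate 3 lay with the trimebutine arrays (difference -0.36 ± 0.42, 95% interval -1.29 to 0.56). Pdia6, Hsp90b1 and the co-chaperone Dnajb11 stood at -0.43 ± 0.32, -0.22 ± 0.18 and -0.38 ± 0.30, and the stress factor Ddit3 (CHOP) at -0.50 ± 0.55. The median was -0.61 without vehicle replicate 3 and -0.09 without vehicle replicate 2.

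ATF4 and amino acid response genes were lower in 23 of 36, with a median of -0.08 that came from -0.27 for trimebutine and 0.11 for alprostadil, and that was 0.04 without vehicle replicate 1. The 13 of 36 higher were 3 when arrays were centred on the tested genes, 17 when centred on all probe sets and 9 after quantile normalization. Nupr1, a stress-induced chromatin protein, stood at -0.24 ± 0.20, Atf5 at 0.15 ± 0.12 and Vldlr at 0.21 ± 0.13. Sterol and fatty acid synthesis genes were higher in all 26 tested, by 0.02 to 0.59, with a median of 0.21 and nearly equal medians for trimebutine (0.24) and alprostadil (0.21). None had an unadjusted p under 0.05. Pmvk, a mevalonate pathway kinase, lay at 7.09, 6.93 and 7.39, 8.36, 7.45 and 7.43 and 7.85, 6.88 and 7.43, so that the groups overlapped (difference 0.43 ± 0.26). Stard4, a cholesterol carrier, stood at 0.58 ± 0.46 and Fasn, fatty acid synthase, at 0.20 ± 0.17. The count of 26 was 22 after centring on the tested genes, 26 after centring on all probe sets and 23 after quantile normalization. The median was 0.08 without vehicle replicate 2, 0.41 without alprostadil replicate 2 and 0.03 without the 3 arrays of lowest median. The mean level of the sterol list, centred per gene, read -0.29, -0.62 and 0.03 with vehicle. It read 0.66, -0.18 and -0.41 with trimebutine and 0.37, -0.65 and 0.03 with alprostadil. Replicate 1 was thus the highest array of each drug group, and the other drug arrays did not lie above the highest vehicle array. Oxidative stress genes stood near 0 (7 of 19 higher, median -0.05), with Sod2 at 0.42 ± 0.25, Sod3 at 0.76 ± 0.46 and Gclc at -0.36 ± 0.29.

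**Figure D4:**
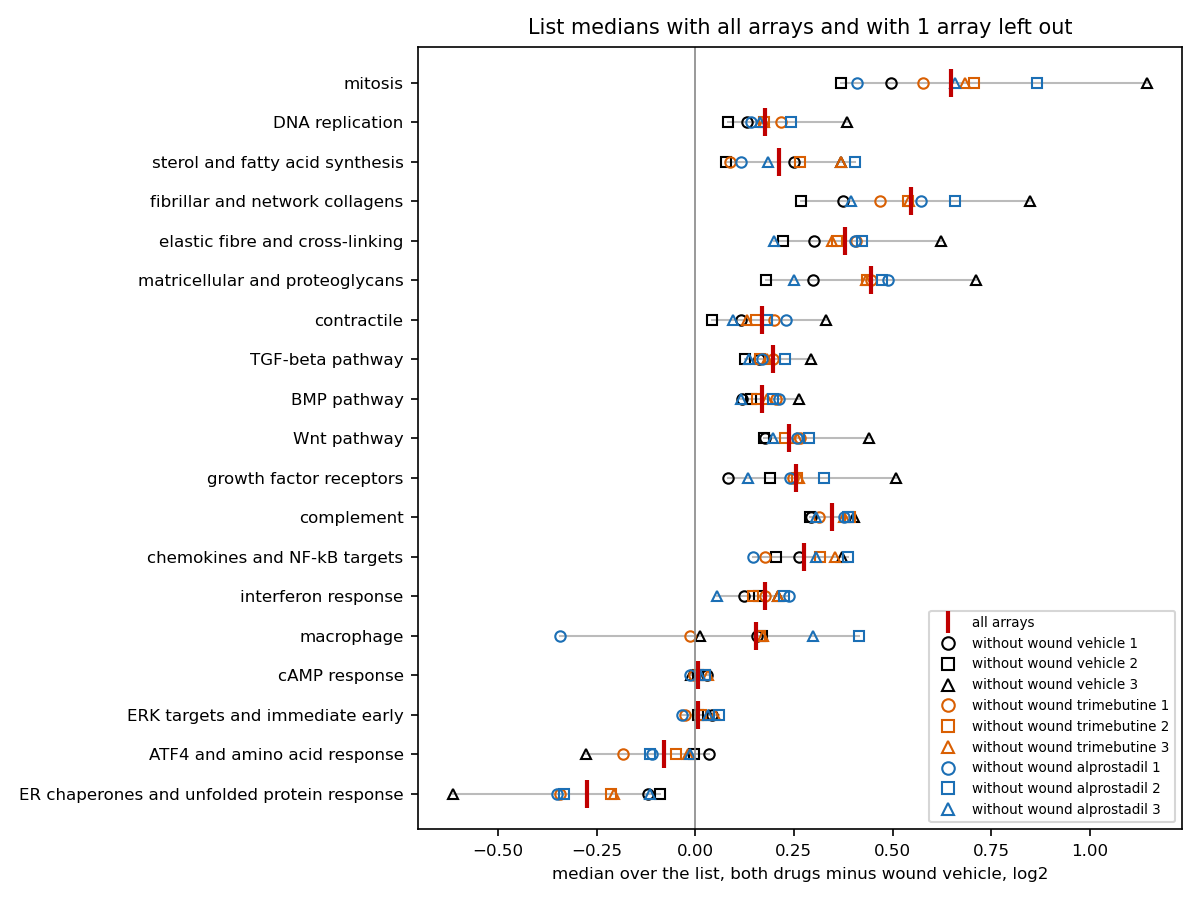
Median pooled log2 difference of 19 gene lists with all arrays (red bar) and with each of the 9 wound arrays left out in turn (open markers; colour gives the group, shape the replicate). Leaving out wound vehicle replicate 3 moved the mitosis median from 0.65 to 1.15 and the ER chaperone median from -0.27 to -0.61, and leaving out alprostadil replicate 1 moved the macrophage median from 0.15 to -0.34.

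The chemokine, complement and interferon lists had medians above 0 with both drugs. Chemokine and NF-kB target genes were higher in 21 of 27 tested (median 0.28, with 0.26 for trimebutine and 0.30 for alprostadil). The acute phase gene Saa3 lay at 12.92, 13.49 and 13.34 with vehicle, 13.78, 13.47 and 13.60 with trimebutine and 13.68, 13.34 and 13.96 with alprostadil, where alprostadil replicate 2 and 1 trimebutine array lay within the vehicle range (difference 0.38 ± 0.15). The adhesion receptor Icam1 stood at 0.61 ± 0.27 and the neutrophil chemokine Cxcl1 at 0.48 ± 0.42. Cd40, a co-stimulatory receptor, stood below vehicle at -0.52 ± 0.20, with -0.93 for trimebutine and -0.10 for alprostadil. Without alprostadil replicate 1, the array with macrophage markers, the chemokine list median was 0.15. The part of macrophage RNA in these differences was not tested.

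Complement genes were higher in 13 of 14 (median 0.35, with 0.49 for trimebutine and 0.24 for alprostadil), and the median was 0.29 to 0.40 with any single wound array left out. C1ra, a serine protease that starts the classical pathway, lay at 7.89, 8.17 and 8.58 with vehicle, 9.07, 8.83 and 8.74 with trimebutine and 8.58, 8.12 and 8.81 with alprostadil (difference 0.48 ± 0.17). Masp1 and C4b stood at 0.55 ± 0.25 and 0.71 ± 0.36. The mean level of the list read -0.33, -0.33 and -0.18 with vehicle, 0.19, 0.03 and -0.13 with trimebutine and 0.40, -0.32 and 0.06 with alprostadil, on a scale centred per gene. Alprostadil replicate 2 was thus the 1 drug array inside the vehicle range. Interferon response genes were higher in 25 of 28 (median 0.18), with 2 higher at an unadjusted p under 0.05, against 3.33% of all tested genes. The peptide transporter Tap2 stood at 0.35 ± 0.14, the antiviral membrane protein Bst2 at 0.39 ± 0.16 and Ifit2 at 0.38 ± 0.18. The interferon median was 0.21 for trimebutine and 0.13 for alprostadil, and the pooled median was 0.05 without alprostadil replicate 3.

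The receptors that the drugs bind were measured next. Oprm1 and Oprk1, the mu and kappa opioid receptor genes, lay below the array median on all 12 arrays (5.62 to 5.94 and 5.48 to 6.18). The delta receptor gene Oprd1, at 6.44 to 6.81, was above it on 2, so all 3 were too dim to be tested. Of 10 tested genes of opioid signalling and of the channels that trimebutine blocks, 7 were higher (median 0.31, and 0.03 without vehicle replicate 2). The potassium channel gene Kcnma1 lay at 6.29, 6.04 and 6.71 with vehicle, 6.59, 6.90 and 6.93 with trimebutine and 6.45, 6.67 and 6.72 with alprostadil (difference 0.36 ± 0.16). Its subunit Kcnmb1 stood at -0.30 ± 0.17, and the L-type calcium channel gene Cacna1d at 1.08 ± 0.65.

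Prostaglandin receptors and enzymes were divided as a list (8 of 14 higher, median 0.02). Ptger4, the EP4 receptor that raises cyclic AMP, lay at 7.25, 6.91 and 8.53 with vehicle, 8.55, 8.57 and 8.90 with trimebutine and 8.48, 7.26 and 8.63 with alprostadil. Vehicle replicates 1 and 2 and alprostadil replicate 2 were the low arrays, and the difference was 0.84 ± 0.39 (95% interval -0.03 to 1.70). Ptger2, the EP2 receptor, stood at -0.09 ± 0.41, with a positive sign when alprostadil replicate 3, trimebutine replicate 3 or vehicle replicate 1 was left out. Ptgfr, the prostaglandin F receptor, stood at 0.90 ± 0.31. Hpgd, the enzyme that inactivates prostaglandins, lay at 6.46, 6.42 and 6.37, 9.23, 8.17 and 7.63 and 7.84, 5.71 and 7.81, where alprostadil replicate 2 was the lowest and all other drug arrays stood above vehicle (difference 1.32 ± 0.58).

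Downstream of these receptors, cyclic AMP response genes were evenly divided, 13 of 25 higher with a median of 0.01. Gem, a small GTPase, stood at 0.32 ± 0.11, while the phosphodiesterase Pde3a and the kinase Sik1 stood at -0.45 ± 0.19 and -0.30 ± 0.13. ERK targets and immediate early genes were divided as well, 14 of 27 higher with a median of 0.01. Spry2, an ERK feedback inhibitor, was the 1 member of 27 without overlap, against 1% of all tested genes above vehicle. It was picked for that after its values were seen. Its levels were 9.03, 9.18 and 9.14 with vehicle, 9.60, 9.38 and 9.20 with trimebutine and 9.52, 9.22 and 9.39 with alprostadil (difference 0.27 ± 0.13). The transcription factor gene Jun stood at 0.58 ± 0.25, Etv4 at -0.26 ± 0.11, Spred3 at -0.40 ± 0.15 and the phosphatase gene Dusp6 at 0.29 ± 0.22. The medians of the cyclic AMP, ERK and prostaglandin lists took the other sign after centring on the tested genes and after quantile normalization.

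Markers of other cell types were read on the same arrays, and in bulk RNA fewer cells of a type and less RNA per cell cannot be told apart. Macrophage markers were higher in 9 of 15 tested (median 0.15), with -0.36 for trimebutine and 0.73 for alprostadil, and the pooled median was -0.34 without alprostadil replicate 1. Their summed linear signal was 3794 to 6282 with vehicle, 2344 to 4104 with trimebutine and 2325 to 53070 with alprostadil. Csf1r, the macrophage growth factor receptor, lay at 6.75, 6.92 and 6.76 with vehicle, 6.95, 6.81 and 6.61 with trimebutine and 10.12, 6.62 and 6.78 with alprostadil, so only alprostadil replicate 1 stood apart. Lyz2, macrophage lysozyme, lay at 10.13, 10.96 and 9.56, 9.54, 7.23 and 7.05 and 12.84, 7.35 and 8.83, which put vehicle above all drug arrays but that 1 (difference -1.41 ± 1.08). The chemokine Ccl6, named after its values were seen, lay at 9.63, 10.34 and 9.02, 8.30, 5.97 and 5.48 and 11.66, 6.12 and 8.42, the same order with a difference of -2.01 ± 1.22. Cd14 and H2-Ab1 stood at 0.69 ± 0.60 and 0.53 ± 0.41.

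Adipocyte genes were higher in 5 of 6 (median 0.42), with Cebpa at 0.61 ± 0.26, Fabp4 at 0.94 ± 0.52 and Plin4 at -0.17 ± 0.11. Schwann cell genes were higher in 5 of 8 (median 0.07), with S100b at 0.67 ± 0.33, Cdh19 at 0.52 ± 0.25 and Gfap at -0.10 ± 0.06. Endothelial genes were higher in 4 of 5 (median 0.06), and the defining gene Cdh5 lay at 9.98, 9.98 and 7.37 with vehicle, 7.35, 9.31 and 8.59 with trimebutine and 9.20, 8.90 and 8.07 with alprostadil. Flt1 stood at 0.89 ± 0.46 and Tek at 0.07 ± 0.15. Pericyte and smooth muscle genes had a median of 0.06 (5 of 6 higher), with Myh11 at -0.09 ± 0.08 and Mcam at 0.19 ± 0.26, and skeletal muscle genes one of 0.02 (4 of 6), with Tnnt3, Myog and Myod1 at 0.24 ± 0.18, -0.12 ± 0.09 and -0.07 ± 0.13. Keratinocyte genes were dim, with a summed signal of 1537 to 1916 over 15 markers, a median of 0.04 and Krt14, Pkp1 and Cdh1 at -0.19 ± 0.10, -0.08 ± 0.08 and 0.22 ± 0.33. Melanocyte genes were lower in 5 of 6 (median -0.13, or -0.03 without vehicle replicate 3), with Ednrb, Sox10 and Mlana at -0.66 ± 0.37, -0.19 ± 0.14 and -0.22 ± 0.17. Their mean level, centred per gene, read 0.07, 0.09 and 0.21 with vehicle, -0.05, -0.05 and -0.18 with trimebutine and -0.08, 0.06 and -0.03 with alprostadil, lower on all 6 drug arrays than on any vehicle array. The gap was narrow, from 0.055 on the highest drug array to 0.075 on the lowest vehicle array. Among all the lists scored it was the only one without overlap, and none of its tested members separated the groups alone. A random order of the arrays would also separate some lists in this way, and this was not tested. Whether the separation held under other scalings was not examined. With arrays centred on all probe sets, 2 of the 6 members were higher and the median was -0.07. The endothelial, pericyte, keratinocyte, Schwann and skeletal muscle medians were below 0 when arrays were centred on the tested genes. Of 11 lymphoid and 9 mast cell markers only 1 and 3 were bright enough to test, and the lymphoid sum stayed between 584 and 772 on all 12 arrays.

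The single-drug comparisons, which share the 3 vehicle arrays, are given side by side. Trimebutine against vehicle passed 0 genes (0%, smallest adjusted p 0.528), with 839 higher (6.38%) and 401 lower (3.05%) at an unadjusted p under 0.05. Alprostadil against vehicle passed 0 genes (0%, smallest adjusted p 0.998), with 141 higher (1.07%) and 221 lower (1.68%). Genes past 1 log2 unit numbered 229 higher and 73 lower for trimebutine, against 37 and 2 for alprostadil.

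The drugs were then compared directly. Trimebutine minus alprostadil passed 0 genes (0%, smallest adjusted p 0.752), with 329 higher (2.5%) and 252 lower (1.92%) at an unadjusted p under 0.05. Qprt, an enzyme of NAD synthesis from tryptophan, had the smallest p. It lay at 9.51, 9.14 and 9.46 with trimebutine, 8.18, 8.36 and 8.71 with alprostadil and 8.50, 8.40 and 8.76 with vehicle, so trimebutine alone stood above the other wound arrays (difference between drugs 0.96 ± 0.15, 95% interval 0.62 to 1.29, limma adjusted p = 0.752). Spon2, a secreted matrix protein of the innate immune response, lay at 9.54, 9.17 and 9.84 with trimebutine, 6.92, 7.81 and 7.44 with alprostadil and 7.18, 7.87 and 9.15 with vehicle, a difference between drugs of 2.13 ± 0.42. Aldh1a1, a retinoic acid-forming dehydrogenase, differed by 0.81 ± 0.16, Gask1a, a secreted Golgi kinase relative, by 0.70 ± 0.14 and Kcnc4, a potassium channel gene, by 0.43 ± 0.09.

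On the other side, Mmp1a, an interstitial collagenase that cuts fibrillar collagen, lay at 8.73, 8.79 and 8.69 with trimebutine, 10.03, 9.97 and 10.26 with alprostadil and 10.42, 10.22 and 8.80 with vehicle. The drug groups did not overlap, and vehicle replicate 3 again lay with trimebutine while replicates 1 and 2 lay with alprostadil (difference between drugs -1.35 ± 0.34, 95% interval -2.11 to -0.60). With vehicle replicate 3 left out of the fit Mmp1a passed between the drugs, at -1.35 (limma adjusted p = 0.0204). Mmp1b, its paralog, differed by -0.80 ± 0.18, and signal from close paralogs such as these may be shared between probe sets. Prom1, which encodes the stem cell surface protein prominin 1, lay at 7.22, 6.74 and 6.45 with trimebutine, 7.82, 7.78 and 7.56 with alprostadil, between 6.90 and 7.15 with vehicle, and at 8.23, 7.85 and 7.89 in uninjured cells. Tfec, a transcription factor of macrophages, differed by -2.17 ± 0.52, with alprostadil replicate 1, the array of high macrophage markers, highest at 9.65. Erdr1, which encodes a secreted stress-response protein, differed by -0.95 ± 0.24.

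**Figure D5:**
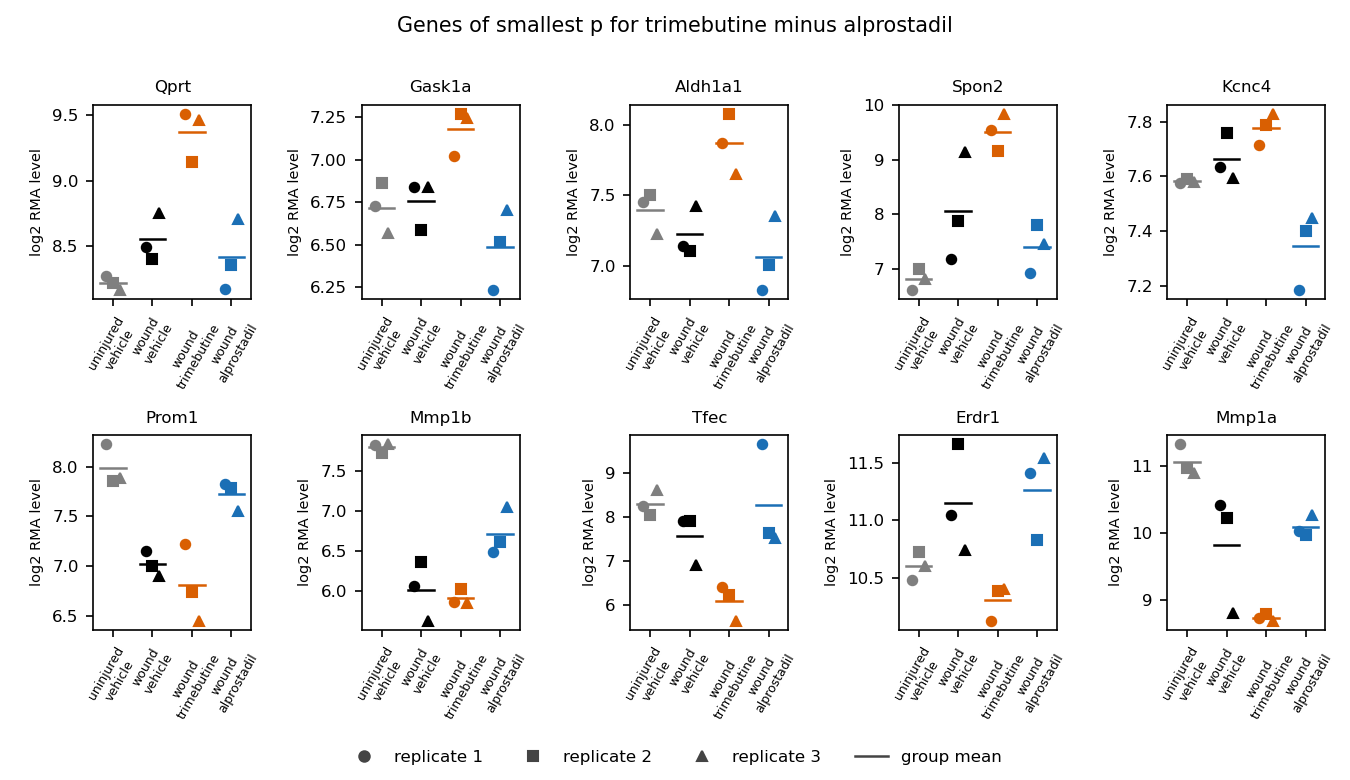
Log2 RMA levels on all 12 arrays of the 10 genes of smallest p between the drugs, 5 higher with trimebutine (top) and 5 higher with alprostadil (bottom); shapes give the replicate and lines the group means. The 3 trimebutine arrays and the 3 alprostadil arrays do not overlap in any panel, while the wound vehicle arrays lie with trimebutine for Prom1 and are split between the drugs for Mmp1a.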

How the data were processed

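The deposited values are log2 expression of 41345 probe sets on 12 arrays, made by the authors with robust multi-array averaging (RMA) in the oligo package, per the submitters' processing notes; no source used here gives their versions. RMA subtracts background, forces all arrays to one distribution and summarises probes, so the deposited array medians differ little (6.57 to 6.74) and shifts of most genes at once can be lost. Through the platform annotation, 23521 probe sets had 1 gene symbol, 1814 had several and 16010 had none. The brightest probe set was kept for each symbol, which left 22180 genes, of which 1082 had more than 1 probe set.

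The 13153 genes above their array's median on at least 3 arrays were tested. A model of the 4 groups was fitted with limma 3.58.1 (R 4.3.3) to all 12 arrays, with 8 residual degrees of freedom. Contrasts were the mean of the drug groups minus wound vehicle, each drug minus wound vehicle and trimebutine minus alprostadil. P-values were adjusted over all tested genes (Benjamini-Hochberg, threshold 0.05). Lists are described by counts and medians alone, and 877 of 953 list entries matched the table. The members and lists were chosen with earlier results of these data known. Named genes were the 10 of smallest p in each direction and the 10 without overlap with the largest smaller single-drug difference (predicted genes left out of both), the 3 of smallest p in each list with at least 5 tested members, the 5 of smallest p in each direction between the drugs, and a set of pathway genes. Genes outside that rule (Aspn, Ccl6, Col14a1, Derl3, Eif2ak3, Fgf18, Folh1, Spry2) were picked after their values were seen, and Fn1 as a level check. Wound replicates with the same number were checked for pairing: 8 of 9 pairs correlated above 0.1 in their deviations, from -0.168 to 0.618. These correlations leave a pairing by number possible. The labels state none, so the main model did not include it, and a fit with the replicate number as a block is given below. Tables and plots used Python 3.11.15, pandas 2.3.3 and matplotlib 3.10.9. The number of arrays limits the precision, and p-values measure the spread between these 3 isolates per group.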

Additional observations from a re-analysis of the deposited data

Results flagged for a closer look

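For 4 genes, every trimebutine array lay on one side of the wound vehicle mean and every alprostadil array on the other. Trimebutine minus alprostadil was 0.70 for Gask1a, 2.13 for Spon2, 0.43 for Kcnc4 and -1.35 for Mmp1a on the log2 scale. All 3 arrays of each drug showed the direction, which genes picked for a small p between the drugs tend to do, so it is no separate support. The difference between the drugs was tested with limma, where none of the 4 passed (adjusted p = 0.752 for each). Mmp1a passed with wound vehicle replicate 3 left out of the fit (-1.35, limma adjusted p = 0.0204).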

How the results depend on the processing

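The pooled comparison had 0 genes past the threshold in each direction under all alternatives run with limma. Counts at an unadjusted p under 0.05 (438 higher and 258 lower) were 1877 and 1349 with array weights. Leaving out wound vehicle replicate 1, 2 or 3 gave 182 and 170, 138 and 155, or 1292 and 747, and leaving out alprostadil replicate 2 gave 846 and 414. Without a filter on dim genes they were 558 and 798. With the replicate block the counts past the threshold were 0, the smallest adjusted p was 0.705, and 527 and 300 genes had an unadjusted p under 0.05. The block changed no call. Each wound array was set against each other wound group, and in 14 of these 18 cases it correlated best with its own number. Trimebutine against wound vehicle had 2167 genes higher and 1867 lower past the threshold with array weights, 0 to 9 higher and 0 to 2 lower with 1 array left out (9 and 2 without wound vehicle replicate 3), and 13 and 4 without that array and wound alprostadil replicate 1. Alprostadil against wound vehicle had 0 to 1 gene higher with 1 array left out (1 without wound alprostadil replicate 2). Trimebutine minus alprostadil had 0 to 1 lower, which was Epsti1 without alprostadil replicate 2 (-1.32, limma adjusted p = 0.0262) and Mmp1a without vehicle replicate 3 (-1.35, adjusted p = 0.0204). Removing that vehicle array and alprostadil replicate 1 together, removing the 3 arrays of lowest median, and centring on all probe sets were chosen after the data were seen. The cause of these shifts was not tested. The direction reversed in 18 of 3990 alternative values for 161 named results, in 8 genes. Without wound alprostadil replicate 1, then with wound vehicle replicate 3 out too, then without the 3 arrays of lowest median, Cdh1 was -0.0762, -0.0838 and -0.135, Csf1r -0.0648, -0.0906 and -0.104, and Mcam -0.029, -0.0334 and -0.0012. With both arrays out Myod1 was 0.0624 and Nes 0.0031. With any 1 array left out the values ran from -0.0762 to 0.384 for Cdh1, -0.0648 to 0.809 for Csf1r, -0.029 to 0.338 for Mcam, -0.198 to 0.0134 for Hgf, -0.129 to 0.0336 for Myod1 and -0.372 to 0.242 for Ptger2. Tek was -0.0044 with arrays centred on the tested genes and -0.0072 with quantile normalization. List medians took the other sign in 48 of 925 alternative values, in 13 lists with small medians.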
